A study of Mus musculus with 8 samples.

Results

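The regions described here are the short stretches of the mouse genome in which H2A.X was marked as higher in control embryonic stem (ES) cells than in cells with TDG knocked down. They are the domains marked for the first library of the list that sets TDG control against TDG KD, on chromosomes 1 to 19. The rule found 426 such domains, out of 455 on all chromosomes, 1385 domains of either side in that list, and 25499 domains in the 6 lists of the series. Each domain was chosen by its mark in the TDG list, so its length and score in that list are a description of what was selected. The sides that the same places took in the other 5 lists were not used to choose them.

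H2A.X was profiled by native chromatin immunoprecipitation with 0.5 µg of antibody per library, with 1 library per condition and 8 samples. TDG control (wild type) and TDG KD (Tdg KD) cells had the 129/Ola strain label and grew in medium with 15% serum. TKO control (wild type) and TKO cells had the same strain label and medium. The labels do not spell out TKO, do not say how TDG was depleted, and do not say whether the TDG and TKO controls came from 1 culture. DNMT1 KO cells in serum and wild-type cells in 2i, PKCi or SRCi medium had the label 129S6/C57B6. PKCi medium held 5 µM Gö6976, and SRCi medium held 1.5 µM CGP77675 with 3 µM CHIR99021. LIF was given as 1000 units for every library but 2i, for which no amount was given. The serum wild-type library and the DNMT1 control library enter only through the lists.

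H2A.X is a variant of histone H2A that is spread along chromosomes and becomes phosphorylated around DNA breaks. TDG is a glycosylase that removes the oxidised forms of methylcytosine made by TET enzymes, and the site is then rebuilt by base excision repair. DNMT1 copies DNA methylation to new strands at replication, and ES cells in 2i medium, which blocks MEK and GSK3 signalling, are known for low DNA methylation. Domains of the other lists therefore come from cells whose methylation machinery or medium differs in other ways.

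Each list places domains on a grid of 1 kb and gives every domain a mark naming the higher library, a signed score and a summed score. Both scores were set by the authors and carry no stated unit. A signed score further up leans to the list's first library and one further down to its second, around an offset that differs by list. In each list 1 side covers less of the autosomes than the other, and it is called the narrow side below. The narrow sides are DNMT1 KO, 2i over serum, 2i over PKCi, 2i over SRCi and TKO, and the broad sides are DNMT1 control, serum, PKCi, SRCi and TKO control. No gene or sequence is given for any place, because the lists are on mm9 and no mm9 annotation was used here. With 1 library per condition no replicate spread can be set against any difference, and the sequencing depth is not known.

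The TDG control domains were short. Their median length was 6 kb, with quartiles of 3 and 15.75 kb and a range of 1 to 218 kb, and together they covered 6.69 Mb, or 0.271% of the autosomal 1 kb bins. A total of 43 were 1 kb long, the smallest length the grid allows. The 34 domains of 50 kb or more were 7.98% of the domains and held 44.1% of their bases. The TDG KD domains of the same list, 857 on the autosomes, had a median of 483 kb and covered 30.1% of the bins.

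Their signed scores had a median of 7.52, with quartiles of 5.23 and 11.4 and a range of 1.14 to 163. The offset of the list, its score median weighted by length, was 0.286. All members thus scored above the offset. The lowest member was chromosome 7, 48436001 to 48473000, with 1.14, and the next was chromosome 12, 116717001 to 116746000, with 1.42. The TDG KD domain with the highest score was chromosome 12, 18490001 to 18496000, with 0.975, so the sides did not overlap in score.

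Shorter domains had higher scores. Spearman's rho between length and signed score over the 426 domains was -0.746, given as a description, since neighbouring places share libraries. The 95 domains of 1 to 2 kb had a median score of 14.9, the 97 of 3 to 5 kb 9.55, the 127 of 6 to 15 kb 6.57 and the 107 of 16 kb or more 4.59. Of the 31 domains with a score of 20 or more, 28 were 1 to 2 kb long. The summed score, which adds at most 1 per 1 kb bin, had a median of 0.707 per kb and ranged from 0.128 to 1.

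**Figure D1:**
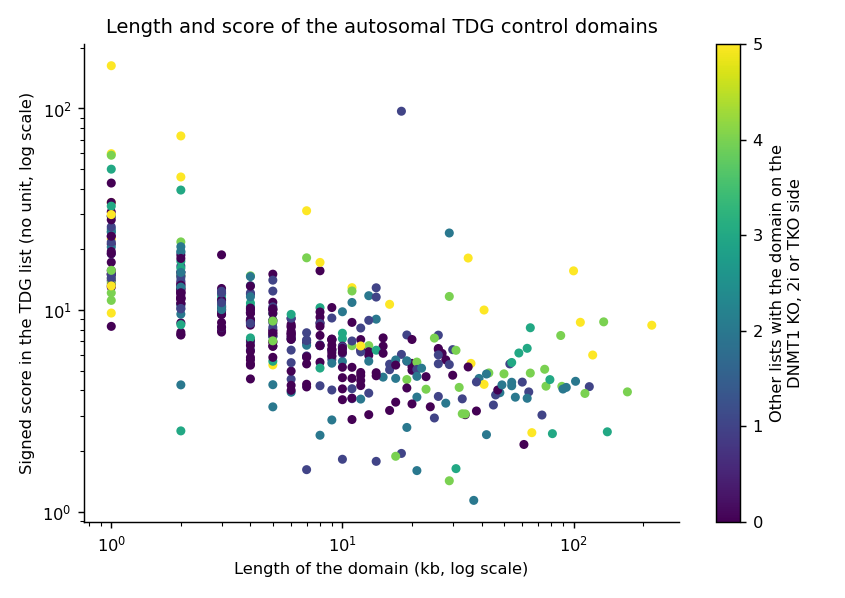
Each of the 426 points is an autosomal TDG control domain, with its length in kb on a log x axis, its signed score in the TDG list on a log y axis, and a colour for the number of the other 5 lists in which it lay on the DNMT1 KO, 2i or TKO side. Scores decline with length from a median of 14.9 at 1 to 2 kb to 4.59 at 16 kb or more, and the point at 18 kb with a score of 96.9 stands away from domains of like length.

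The domain with the highest score was chromosome 4, 3017001 to 3018000, at 163. The domain beside it, 3018001 to 3019000, scored 59.7, and both belong to a run that starts with 3006001 to 3017000, which scored 12.9. These 3 lie close to the start of the assembled chromosome and form 1 unbroken stretch of 13 kb that the list divides by score. In the DNMT1 list this stretch belongs to the DNMT1 KO side, and the 2 bins with the highest scores had -41.0 there. They scored -22.4 toward 2i against serum, 27.8 toward 2i against PKCi, 21.9 toward 2i against SRCi and -15.1 toward TKO. In all 5 lists the place lay on the narrow side.

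The second highest score, 96.9, belonged to chromosome 9, 3038001 to 3056000, and this domain went another way. Its summed score was only 2.65 over 18 kb, where the median of the members was 0.707 per kb. Against 2i it lay on the serum side at -4.21, in the PKCi list on the PKCi side at 0.430 and in the SRCi list on the SRCi side at 0.550, and in the DNMT1 list on neither side. The offsets of the serum, PKCi and SRCi lists were -7.76, 5.05 and 6.04. The scores of 0.430 and 0.550 were the lowest, and so furthest toward PKCi and SRCi, of any member on those sides. The nearby members at 3056001 to 3085000 and 3177001 to 3189000 had the same scores there. Only in the TKO list was it on the narrow side, at -9.98 toward TKO. A high score in the TDG list was thus not always joined by the same side elsewhere.

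Other short places with high scores were likewise divided. Chromosome 12, 75904001 to 75906000, scored 73.1 in the TDG list, -87.7 toward DNMT1 KO, -58.1 toward 2i against serum and -10.2 toward TKO, and lay on the narrow side in all 5 lists. Chromosome 3, 56378001 to 56380000, scored 45.7, with -131 toward DNMT1 KO, the most extreme score of any member there. Only 50% of its 2 kb lay on that side, the least that counts. Chromosome 6, 103599001 to 103600000, scored 58.6 and -99.2 toward DNMT1 KO, but lay on the TKO control side at -0.73. By contrast, chromosome 4, 56706001 to 56707000, with 42.7, and chromosome 9, 77500001 to 77501000, with 34.2, lay on the DNMT1 control, serum, PKCi and SRCi sides and on neither side of the TKO list. In the DNMT1 list the first scored -2.71, close to that list's offset of -2.66. The second scored -2.26, above the upper quartile of -2.37 of the DNMT1 control side.

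Most members stood alone. The 407 gaps between neighbours on a chromosome had a median of 2669 kb, with quartiles of 543.5 and 8152 kb. Joining domains no more than 100 kb apart gave 387 places, of which 358 were single domains and 29 were groups holding 68 domains, or 15.96% of the members. There were 20 pairs, 8 groups of 3 and 1 group of 4. At a joining distance of 10 kb 421 domains were single, and at 1000 kb 218 were single while 208, or 48.8%, fell in 73 groups.

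**Figure D2:**
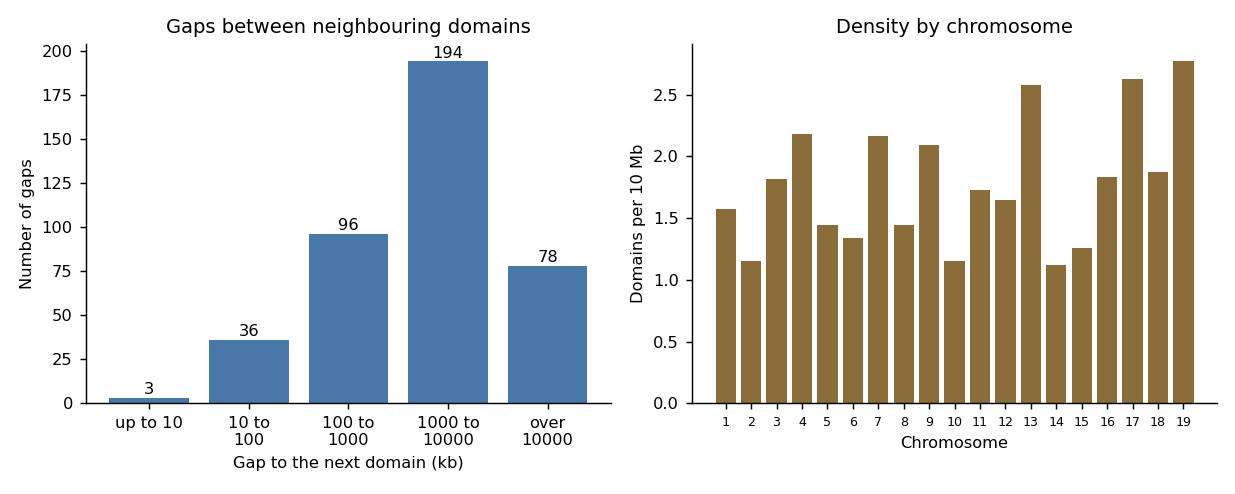
The left bars count the 407 gaps between neighbouring TDG control domains by size class in kb, and the right bars give domains per 10 Mb for each autosome. Of the gaps 3 were up to 10 kb and 78 were over 10000 kb, and density was between 1.12 per 10 Mb on chromosome 14 and 2.77 on chromosome 19.

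Density differed by chromosome. Chromosomes 19, 17 and 13 held 2.77, 2.62 and 2.58 domains per 10 Mb, and chromosomes 14, 10 and 2 held 1.12, 1.15 and 1.16. By covered length chromosomes 13 and 17 led with 6.601 and 6.07 kb per Mb, and chromosome 15 was lowest with 0.657. The first 5 Mb after position 3 Mb, where the assembled sequence of mouse chromosomes starts, held 42 domains, or 9.86%, in 3.84% of the bins. The last 5 Mb held 21, or 4.93%, in an equal 3.84%.

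The group of 4 was chromosome 13, 12800001 to 13364000. Its domains measured 8, 135, 171 and 54 kb and filled 65.2% of the 564 kb. In the order of position their TDG scores were 9.79, 8.74, 3.93 and 5.50. The first lay on the serum, PKCi and SRCi sides. The other three were on DNMT1 KO, at -22.5, -7.43 and -8.06, and on 2i over serum, at -51.2, -21.3 and -21.3. None of the 4 lay on either side of the TKO list. This group thus had members of both kinds within 1 Mb.

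At a joining distance of 1000 kb the group with the most members was chromosome 4, 144980001 to 147187000, with 9 domains and 551 kb of member bases. It includes the longest member of all, 146776001 to 146994000, at 218 kb. That domain scored 8.41 in the TDG list, -26.3 toward DNMT1 KO, -33.3 toward 2i against serum, 14.8 toward 2i against PKCi, 15.9 toward 2i against SRCi and -5.64 toward TKO. All 9 domains were DNMT1 KO domains and 2i domains over serum, 7 lay on the 2i side over PKCi, 8 on the 2i side over SRCi and 7 on the TKO side. The domain at 146020001 to 146027000 was on the TKO control side, and the one at 145105001 to 145193000 on neither side of that list. The next in size was chromosome 12, 115221001 to 117072000, with 8 domains and 243 kb of member bases. Of these 7 lay on DNMT1 KO, 7 on 2i over serum, 5 on 2i over PKCi, 4 on 2i over SRCi and none on TKO, and the one at 116833001 to 116922000 lay on TKO control.

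Some of the short domains lay close to the broad TDG KD domains of their own list. Their distance to the nearest TDG KD domain had a median of 349 kb, with quartiles of 26.3 and 2207 kb. A total of 103 were within 10 kb of one and 147, or 34.5%, within 100 kb. The share of all bins at such distances was not computed, so whether these counts differ from other places is not known. The domains of the list exclude each other, so these distances describe how the sides alternate.

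In each other list a member was placed on a side when at least 50% of its length lay there. One domain of 2 kb, chromosome 2, 181746001 to 181748000, lay with 1 kb on each side of the PKCi list and counts on both. The ranges in parentheses after shares of members are Wilson 95% intervals for counting error alone, and grouped domains are not independent. Beside each count stands the share of all autosomal 1 kb bins on that side, over 2472313 bins.

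In the DNMT1 list 176 of the 426 domains, or 41.3% (36.7% to 46.0%), lay on the DNMT1 KO side, where 3.58% of the bins lie. The DNMT1 control side held 56, or 13.1% (10.3% to 16.7%), against 44.4% of the bins, and 194 lay on neither side, where 52% of the bins lie. By bases the contrast was wider, since longer members lay more often on the KO side. The KO side held 69.2% of the member bases and the control side 4.95%. The broad TDG KD domains of the same TDG list had 1.81% of their bases on the KO side and 57.8% on the control side.

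In the serum and 2i list 189 domains, or 44.4% (39.7% to 49.1%), lay on the 2i side, against 11.8% of the bins. The serum side held 37, or 8.69% (6.37% to 11.7%), against 30.3% of the bins, and 200 lay on neither side, where 57.9% of the bins lie. By bases the 2i side held 61.9% and the serum side 4.20%. The TDG KD domains had 6.45% of their bases on the 2i side and 62.8% on the serum side.

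The lists of 2i against PKCi and SRCi gave lower counts on their narrow sides. The 2i side over PKCi held 78 domains, or 18.3% (14.9% to 22.3%), against 6.38% of the bins, and the 2i side over SRCi held 85, or 19.95% (16.4% to 24.0%), against 7.11%. The broad PKCi side held 212, or 49.8% (45.0% to 54.5%), against 74.4% of the bins, and the SRCi side 217, or 50.9% (46.2% to 55.7%), against 75.9%. By bases the sides were close, with 32.3% on 2i over PKCi and 32.6% on PKCi, and 37.7% on 2i over SRCi and 31.4% on SRCi. These lists and the serum list all name 2i, so they are not separate results.

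In the TKO list most domains, 296, lay on neither side, where 71.5% of the bins lie. The TKO side held 56, or 13.1% (10.3% to 16.7%), against 0.399% of the bins, and 21.4% of the member bases. The TKO control side held 74, or 17.4% (14.1% to 21.3%), against 28.1%, and 15.3% of the member bases. The 56 domains lay on 50 of the 280 autosomal TKO domains, or 17.9% of that side. On the DNMT1 KO side the 176 domains lay on 166 of 1470, or 11.3%, and on the 2i side over serum the 189 lay on 170 of 5984, or 2.84%.

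**Figure D3:**
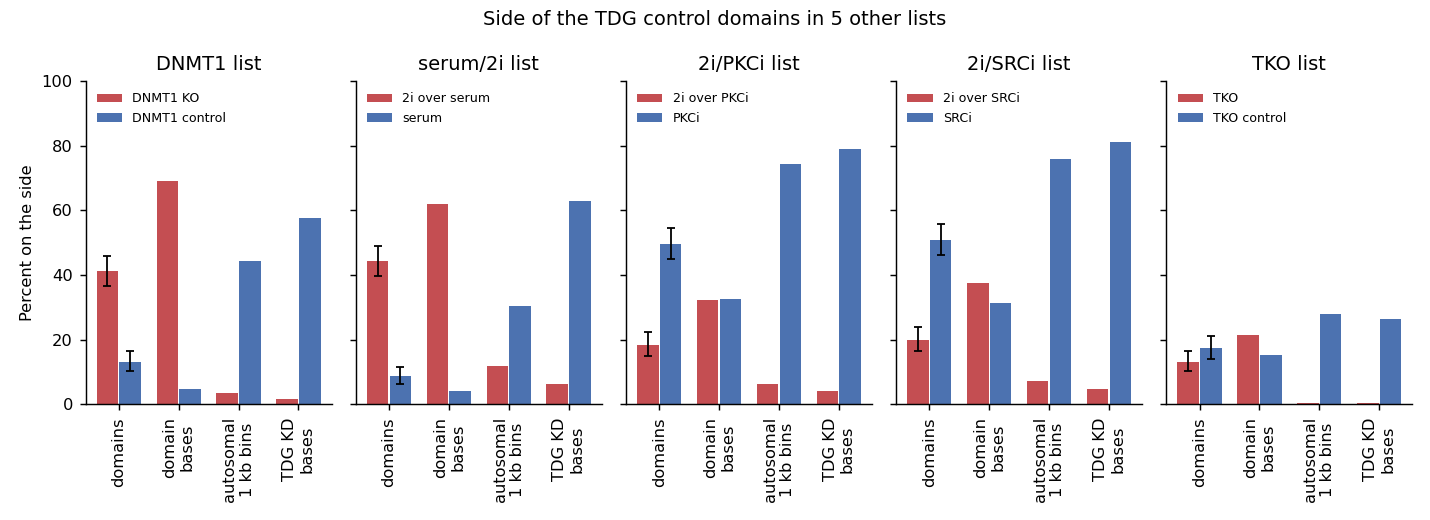
For each of 5 lists, bars give the percent on the narrow side (red) and the broad side (blue) for the 426 TDG control domains (with Wilson 95% intervals), their bases, all autosomal 1 kb bins, and the bases of the TDG KD domains. Red bars are higher for the TDG control domains than for the bins in every list, as with DNMT1 KO at 41.3% against 3.58% and TKO at 13.1% against 0.399%.

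Part of these shares follows the chromosome. On chromosomes 6 and 8 together, 34 of 39 members lay on the 2i side over serum, where 66.2% of the bins there lie, and 27 and 30 lay on the 2i side over PKCi and SRCi, against 53.8% and 60.3% of the bins. None of the 39 lay on the serum, PKCi or SRCi side, which hold only 3.76%, 3.89% and 4.08% of the bins there, so a count of 0 is near the background. On chromosome 11, 20 of 21 members lay on the TKO control side, where 94.8% of its bins lie. On the other 16 autosomes, with 366 members, 40.2% lay on the 2i side over serum against 4.82% of the bins, 13.7% on 2i over PKCi against 0.293%, 14.8% on 2i over SRCi against 0.302%, 40.7% on DNMT1 KO against 3.54% and 14.5% on TKO against 0.414%.

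Shares also differed by length. Of the 107 domains of 16 kb or more, 76, or 71.0% (61.8% to 78.8%), lay on the DNMT1 KO side and 65, or 60.7% (51.3% to 69.5%), on the 2i side over serum. Of the 97 domains of 3 to 5 kb, 21 lay on the DNMT1 KO side, or 21.6% (14.6% to 30.8%), and 34 on the 2i side, or 35.1% (26.3% to 45.0%). The 95 shortest, of 1 to 2 kb, stood between these, with 39 on DNMT1 KO, or 41.1% (31.7% to 51.1%), and 45 on 2i, or 47.4% (37.6% to 57.3%). On the TKO side the shortest and the longest classes were alike in share, at 20 of 95 and 21 of 107, and the middle classes lower, at 5 of 97 and 10 of 127. These classes were set after the values were seen, and their differences were not tested.

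Over the 5 lists 245 members, or 57.5% (52.8% to 62.1%), lay on the narrow side of at least 1, where 14.3% of the bins do. A total of 61, or 14.3% (11.3% to 18.0%), did so in at least 4 lists, against 0.436% of the bins, and 26, or 6.10% (4.20% to 8.79%), in all 5, against 0.0415%. The 26 lay on 12 chromosomes, with 9 on chromosome 4, and held 840 kb. Narrow sides alone were met by 140 domains, with 53.2% of the member bases, against 6.32% of the bins. Narrow and broad sides both were met by 105 domains, against 8.01% of the bins.

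**Figure D4:**
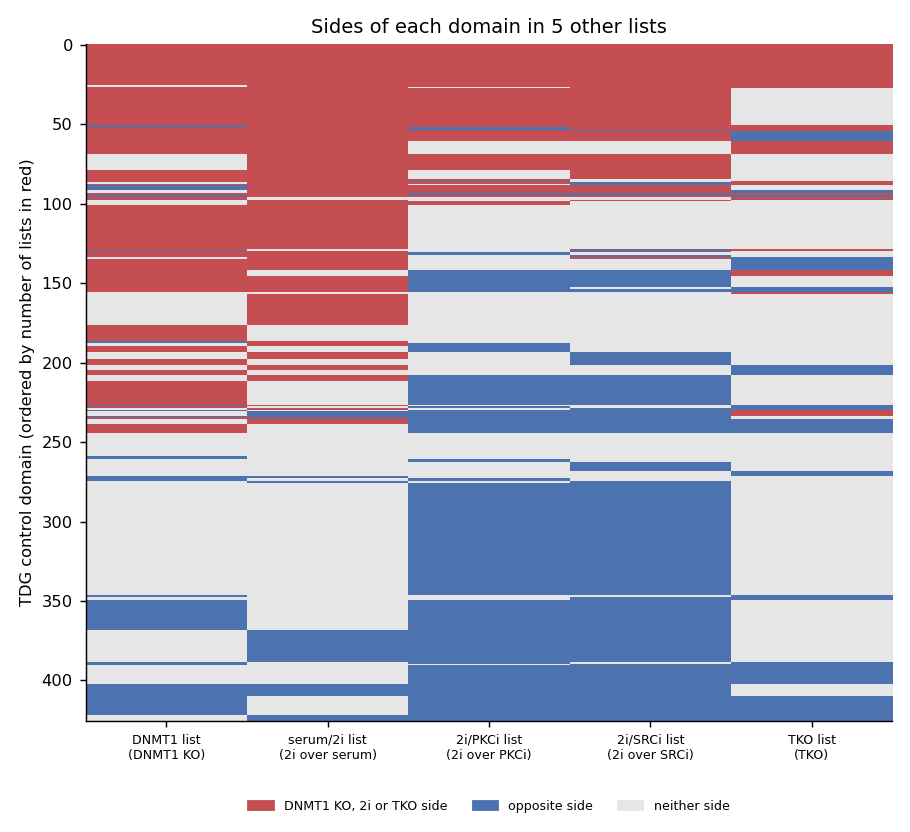
Each row is 1 of the 426 TDG control domains and each column 1 of 5 other lists, in red where the domain lay on the DNMT1 KO, 2i or TKO side, in blue where it lay on the opposite side and in grey where it lay on neither. The top 26 rows are red in all columns, and the lower 181 rows hold no red, with blue mainly in the PKCi and SRCi columns.

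The remaining domains took other sides. Broad sides alone were met by 167 domains, or 39.2% (34.7% to 43.9%), with a median length of 5 kb and 19.2% of the member bases, against 79.9% of the bins. A further 14 domains, of 149 kb in all, lay on no side in any of the 5 lists, against 5.76% of the bins. The 181 domains with no narrow side had a median TDG score of 7.76, beside 7.52 for all members. Their TDG scores thus lay within the range of the others, from 2.16 to 42.7 for those on broad sides alone.

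Lists differed in which members they shared. Of the 56 members on the TKO side, 48, or 85.7%, were on the DNMT1 KO side, and these were 27.3% of the 176 on DNMT1 KO. Over all autosomal bins, 32.7% of those on TKO were on DNMT1 KO, and these were 3.64% of the DNMT1 KO bins. Of the 189 on 2i over serum, 125, or 66.1%, were on DNMT1 KO, which is 71.0% of that side's members, where the bins gave 14.8% and 48.7%. Outside the DNMT1 KO members, 64 of 250, or 25.6%, were on 2i over serum and 8 of 250, or 3.2%, on TKO, where the bins outside DNMT1 KO gave 10.4% and 0.279%. All 78 members on 2i over PKCi and all 85 on 2i over SRCi were also on 2i over serum, and 73 were on both. This holds for nearly all bins too, of which 96.2% on 2i over PKCi and 94.0% on 2i over SRCi were on 2i over serum. Counted by narrow sides, whatever the broad sides, 181 domains had none. The most frequent combinations after that were DNMT1 KO with 2i over serum, at 48 domains, DNMT1 KO, at 44, and 2i over serum, at 40. Broad sides were also met by 58 of the 89 members with 1 narrow side and 27 of the 60 with 2. The share of bins with each combination was not computed. Members on the narrow side of every list but TKO numbered 29 and had a median length of 29 kb.

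The 10 longest members lay mainly on narrow sides. All 10 lay on the DNMT1 KO side, and all but chromosome 3, 93558001 to 93675000, lay on 2i over serum. That domain was also the only member of the 10 on a broad side. Chromosome 11, 3000001 to 3100000, scored 15.7 in the TDG list, -40.5 toward DNMT1 KO, -143 toward 2i against serum, 94.8 and 98.7 toward 2i against PKCi and SRCi, and -29.4 toward TKO. Chromosome 4, 145661001 to 145768000, scored 8.70, with -31.2 toward DNMT1 KO and -7.89 toward TKO. Chromosome 3, 93558001 to 93675000, scored 4.17 and -15.6 toward DNMT1 KO, but lay on the SRCi side at 5.33 and on neither side of the serum, PKCi and TKO lists. Chromosome 17, 17360001 to 17462000, scored 4.44, -9.12 toward DNMT1 KO and -20.7 toward 2i against serum, and lay on neither side of the other three lists.

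Members that lay on narrow sides lay, at the median, on domains that scored above the middle of their side. Over the 176 members on DNMT1 KO, the domain met had a median percentile of 83.0 by score among the autosomal domains of that side, and 64 of the 176 members, or 36.4%, lay on a domain among the 10% with the highest scores toward KO. The median score of members there was -8.47 (quartiles -12.7 and -6.51), beside -6.56 (quartiles -7.59 and -6.06) for all 1470 domains. The median percentile was 73.0 on the TKO side, 65.7 on 2i over PKCi, 59.3 on 2i over serum and 56.7 on 2i over SRCi. On 2i over serum the median score was -21.2, beside -20.2 for all 5984 domains, and on TKO -6.71, beside -4.28 for all 280. The domains met, counted once per member, were also longer than those of their side as a whole. Long domains are met more often by any set of places, so this alone says nothing particular about the members. The median of the domains met was 73 kb beside 14 kb on 2i over serum, 40 kb beside 16 kb on TKO and 68 kb beside 43.5 kb on DNMT1 KO. It was 139 kb beside 107 kb on 2i over SRCi and 111 kb beside 92 kb on 2i over PKCi. The broad sides showed it too, as with 906.5 kb beside 415 kb on PKCi and 643 kb beside 243 kb on DNMT1 control. The part of length in the ranks was not tested.

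**Figure D5:**
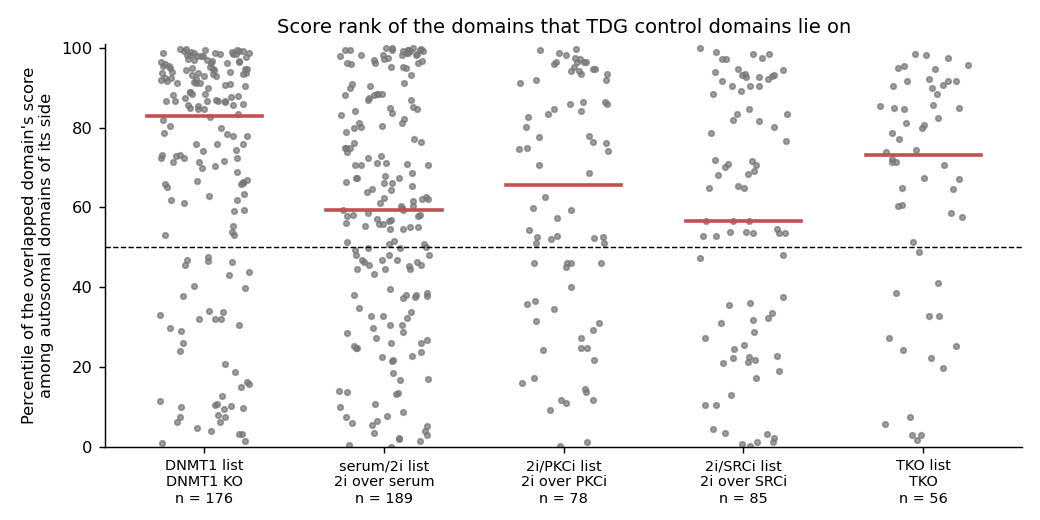
For each list, points give the percentile, by score toward the narrow side, of the domain on which a TDG control domain lay, among all autosomal domains of that side. Red lines are medians, from 56.7 on 2i over SRCi to 83.0 on DNMT1 KO, and the dashed line is the 50th percentile.

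On the PKCi, SRCi and serum sides the median score of members lay near that of the side. The 212 members on PKCi had a median of 5.15, beside 4.96 for the side and an offset of 5.05. The 217 on SRCi had 5.96, beside 6.12 and 6.04. The 37 on serum had -7.66, beside -7.58 and -7.76. On DNMT1 control the 56 members had -2.73, beside -2.59 for the side and an offset of -2.66. That lay close to the side's lower quartile of -2.74, so these members leaned less to the control than the middle of the side. On TKO control the 74 members had -0.40, with quartiles of -0.63 and -0.02, beside -0.57 for the side. The domains met on TKO control had a median percentile of 70.0 by score toward the control, and 18 of the 74 members lay on a domain among the 10% with the highest scores. Of these 74 members, 20 were on chromosome 11, where 94.8% of the bins lie on TKO control. The part of that chromosome in the rank was not tested. On DNMT1 control, serum, PKCi and SRCi the median percentiles were 28.1, 46.1, 41.6 and 57.5.

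Scores in the TDG list went weakly to moderately with scores elsewhere. Spearman's rho between the TDG score and the score toward the narrow side was 0.298 over 176 members on DNMT1 KO, 0.239 over 189 on 2i over serum, 0.499 over 78 on 2i over PKCi, 0.251 over 85 on 2i over SRCi and 0.434 over 56 on TKO. Members share libraries, and members on 1 domain share its score, so these are descriptions. Within the length classes rho varied. It ranged from 0.142 to 0.486 on DNMT1 KO, from -0.272 to 0.396 on 2i over serum, from 0.119 to 0.380 on 2i over PKCi, from -0.0989 to 0.164 on 2i over SRCi and from 0.0165 to 0.648 on TKO, over classes of 10 or more members. Length itself had a rho of -0.397 with the score toward 2i over PKCi, -0.310 toward TKO and -0.217 toward 2i over SRCi. It had -0.0216 toward 2i over serum and 0.0788 toward DNMT1 KO.

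Edges were often shared with the DNMT1 and TKO lists. Of the 176 members on DNMT1 KO, 37 had the same start and end as the KO domain, 91 shared at least 1 edge, and 124 lay inside a longer KO domain. On TKO, 16 of 56 had the same start and end and 36 shared at least 1 edge. On 2i over serum, 5 of 189 had both edges in common and 141 lay inside a longer 2i domain. On 2i over PKCi 3 of 78 and on 2i over SRCi 2 of 85 had both edges in common. Edges were not compared with those of other regions.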

How the data were processed

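The authors deposited 6 lists of H2A.X domains, and each list compares 2 libraries. Per the submitters' processing notes, Bowtie2 2.0.6 and mm9 were used for alignment. The sources used here do not give the domain caller, its settings or any depth scaling. Both score columns are the authors' deposited scores, used only within a list. Which library a mark stands for was taken from the order of conditions in each list's name, and every direction rests on it. Libraries were 1 per condition, so no test between conditions was run, and depth is unknown.

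Lengths, gaps, overlaps and ranks were computed with Python 3.11.15, numpy 2.4.6, pandas 2.3.3 and scipy 1.17.1. A member counted on a side when at least 50% of its length lay there. Scores elsewhere are means over overlapping domains, weighted by length. The background is the share of 1 kb bins of chromosomes 1 to 19, from 0 to the last position in any list. Leaving out the first 3 Mb of each autosome, a check added after seeing the data, moved the DNMT1 control share from 44.4% to 45.4% and the others by less. Overlap, weighted score and joining were tested on simulated data and matched a count by bins in 20 of 20 simulations. Regions were named by rule: the 10 longest, the 10 with the highest score, the 10 with the most narrow sides, the lowest scores and groups of 4 or more. The chromosome 4 and 12 groups at 1000 kb were chosen after their values were seen, as were the length classes. The members, lists and rules were chosen with earlier results of these data known. Alternatives are given in the closing section.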

Additional observations from a re-analysis of the deposited data

How the results depend on the processing

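Of 85 alternative values, 62 stayed within the 95% interval of the value given (for the number of places, within 1.5 times) and 23 did not. Counting any overlap of 1 base gave 50.2% on 2i over serum, and requiring the whole length gave 34.3% there and 14.8% on 2i over PKCi. With the 50% of members with the highest TDG score, which are shorter by construction, the share was 34.3% on DNMT1 KO and 17.4% on TKO, the median length 3 kb, the median score 11.4 and the number of places 205. Without chromosomes 6, 8 and 11 the shares were 13.7% on 2i over PKCi, 14.8% on 2i over SRCi and 12.3% on TKO control. Keeping the 50% of domains of each other list with the highest scores lowers shares by construction, to 30.8% on DNMT1 KO, 3.52% on DNMT1 control, 26.8% on 2i over serum, 3.29% on serum, 11.97% on 2i over PKCi, 19.2% on PKCi, 12.4% on 2i over SRCi, 29.6% on SRCi, 9.39% on TKO and 11.7% on TKO control. In a split by length added after seeing the data, 64.1% of the members of 6 kb or more and 49.5% of the shorter ones lay on a narrow side in at least 1 list. Counting clusters in place of members moved none of the 10 shares per side of a list out of its interval, and leaving out the group on chromosome 13 moved neither these nor the shares on a narrow side in at least 1 or in all 5 lists. No paired analysis was possible because conditions had a single library each. The lists give no read depth, so what it limits was not measured.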

Other observations

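Outside the autosomes the TDG list held 29 further control domains, 17 on X and 12 on Y. Those on X had a median length of 16 kb and a median score of 11.1, and 12 of the 17 lay on the TKO side, 12 on DNMT1 KO and 13 on 2i over serum, sides that hold 0.523%, 0.323% and 1.50% of the X bins. Those on Y had a median of 9.5 kb and a score of 9.47, and 11 of the 12 lay on the TKO side, 11 on DNMT1 KO and 9 on 2i over serum, which hold 3.43%, 2.06% and 1.50% of the Y bins. On the autosomes 56 of 426 lay on the TKO side, with 0.399% of the bins. The difference between chromosomes was not tested.

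Some members on the narrow side of all 5 lists lay near the assembled start of chromosomes. A total of 25 members, or 5.87%, started between 3 and 4 Mb, on 13 chromosomes, a window chosen after seeing the data. Of the 26 members on the narrow side of all 5 lists, 8 were among them, and 3 of these form the unbroken 13 kb stretch on chromosome 4. The share of bins in this window was not computed, neither for all bins nor for those on all 5 narrow sides. Chromosome 17, 3019001 to 3085000, was one of these, with a TDG score of 2.47, as was chromosome 16, 3232001 to 3273000, with 10.0. Other members there lay on no narrow side, as with chromosome 13, 3155001 to 3158000, which scored 12.8.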
